A study of Mus musculus with 16 samples.

Results

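Immediate early and stress genes were followed across sorted colon fibroblasts. A list of 35 was taken by name, and every probe set annotated to exactly 1 of them was read in all 16 arrays. Of the 35 genes, 32 were measured, by 56 probe sets, out of 17097 genes on the array. Dusp5, Zfp36 and Hspa1a are not analysed here. Immediate early genes are switched on within minutes of a stimulus, without new protein synthesis, when growth factors, cytokines, stretch or injury activate kinases that reach their promoters. Enzymatic tissue dissociation and cell sorting are themselves such stimuli, so these genes and the heat shock chaperones are often read as a record of handling in sorted cells. Most encode transcription factors, and several encode inhibitors that shut the same kinases down again.

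The cells were colon fibroblasts, sorted as Epcam-, CD45-, CD31- and gp38+ from C57BL/6 mice that all carried Gli1CreERT2-ZsGreen. In this kind of allele a tamoxifen-activated Cre is driven by Gli1, a target and effector of Hedgehog signalling, so the label marks cells that expressed Gli1 when tamoxifen was given. Every animal had received 1 mg tamoxifen intraperitoneally on 5 days running, and colons were taken at day 6. A second label field puts the time at 5 days after tamoxifen. The 4 populations were Sca1+ Gli1ZsGreenhigh (ZsGreen-high), Sca1+ Gli1ZsGreendim (ZsGreen-dim), Sca1+ Gli1ZsGreen- (Sca1+ ZsGreen-negative) and Sca1- Gli1ZsGreen- cells, here called Sca1- cells, each, by the labels, from the same 4 mice. No undissociated tissue and no animal without tamoxifen was among the samples, so how much of any level arose during isolation was not tested, and the listed genes are called immediate early and stress genes.

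The arrays labelled mouse 2 did not match one another. The ZsGreen-high and ZsGreen-dim arrays with that label read 487 and 424 for Xist and 3111 and 3095 for the Y-linked gene Eif2s3y. The Sca1+ ZsGreen-negative and Sca1- arrays with the same label read 18116 and 19209 for Xist, and 146 and 197 for Eif2s3y. The arrays of each other mouse were of 1 sex. By these genes ZsGreen-high and ZsGreen-dim each held 2 male arrays (mice 1 and 2), and each ZsGreen-negative population held 1 (mouse 1). The part of sex in the results was not tested. Counts of mice below follow the labels. Member calls made with no block or covariate are given with and without mouse 2. Those for further probe sets of a gene and for genes outside the list are not.

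Fibroblast markers were present in every population. All 10 measured genes of that list were above array background, with summed signals of 377267 to 395660 in ZsGreen-high, 368492 to 412520 in ZsGreen-dim, 305224 to 376604 in Sca1+ ZsGreen-negative and 239293 to 359634 in Sca1- cells. Markers of colon epithelium were also present, although the gate removed Epcam+ cells. Of 18 listed epithelial genes 17 were measured and none was at background. Their summed signal ran from 45757 to 184808 in ZsGreen-high, 195003 to 344647 in ZsGreen-dim, 295242 to 462097 in Sca1+ ZsGreen-negative and 272038 to 492229 in Sca1- cells. All 17 fell in ZsGreen-high cells against either ZsGreen-negative population. The mean log2 signal of the 17 genes was 14.16 in Sca1+ ZsGreen-negative and 14.18 in Sca1- cells. A covariate for this epithelial mean is reported beside the comparisons of ZsGreen-high cells. By array the mean ran from 11.065 to 13.0 in ZsGreen-high, 13.708 to 14.463 in Sca1+ ZsGreen-negative and 13.488 to 14.561 in Sca1- cells. In ZsGreen-dim cells it ran from 12.903 to 13.983 and overlapped every other population. ZsGreen-high arrays did not overlap either ZsGreen-negative population, so the covariate cannot separate an epithelial part from a difference between ZsGreen-high and those populations. A lost call or turned sign with it decides neither, and the epithelial part was not tested. The 3' to 5' signal ratio of Actb was 1.24 ± 0.03 in ZsGreen-high, 1.16 ± 0.07 in ZsGreen-dim, 1.11 ± 0.01 in Sca1+ ZsGreen-negative and 1.11 ± 0.05 in Sca1- cells (SD, n = 4 each), and its part was not tested either.

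Promoter sequence was at hand for 29 of the 35 genes, as the 250 bases before each listed RefSeq start site on GRCm38.p6 (not used here: Fosl1, Egr1, Egr3, Ier2, Hspa8 and Myc). A gene was counted when any of its windows held the match. The cyclic AMP response element TGACGTCA, searched on both strands, was found in 4 of the 29 (Maff, Dusp1, Btg2 and Ppp1r15a), 13.8% against 1.77% of the same windows of 27025 genes. The EGR pattern GCGNGGGCG was in 12 of the 29, or 41.4% against 5.33% of all genes. The heat shock pattern GAANNTTC was in 17.2% against 7.73%, and the STAT pattern TTCNNNGAA, which can overlap it, in 6.9% against 8.13%. The AP-1 pattern TGANTCA, which does not contain the cyclic AMP element, was in 0 of 29 windows and 7.82% of all. CArG boxes, the sites named for serum response factor, were in 3 of the 29, or 10.3% against 1.62%. These are letter matches and say nothing of binding. The stretches below are examples of these matches from the feedback, AP-1 and chaperone genes described next, with Hspa1a, which has no signal here, shown for its likeness to Hspa1b. Each runs 5′ to 3′ on the gene's strand, and capitals mark the match: the STAT pattern in Socs3, the cyclic AMP element in Ppp1r15a and Maff, and the heat shock pattern in the 3 chaperones.
Socs3, chr11:117969492-117969540, minus strand: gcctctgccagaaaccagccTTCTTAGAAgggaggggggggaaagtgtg
Ppp1r15a, chr7:45526269-45526300, minus strand: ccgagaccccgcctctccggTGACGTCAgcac
Maff, chr15:79347471-79347518, plus strand: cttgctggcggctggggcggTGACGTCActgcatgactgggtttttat
Hspa1b, chr17:34959315-34959362, minus strand: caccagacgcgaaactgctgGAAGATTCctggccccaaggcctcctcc
Hspa1a, chr17:34972233-34972280, minus strand: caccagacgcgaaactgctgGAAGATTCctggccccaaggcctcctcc
Hspb1, chr5:135887782-135887849, plus strand: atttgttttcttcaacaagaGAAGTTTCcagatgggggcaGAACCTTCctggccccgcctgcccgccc
The Socs3 and Maff stretches lie within the span of their genes, before an inner start site. The Hspa1b and Hspa1a stretches are the same letters at separate positions. Their transcripts are near-identical too, so the Hspa1b probe sets may also read Hspa1a.

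The list as a whole was expressed in every population, with its lowest average in Sca1- cells. No member was at array background on any of the 16 arrays. The mean log2 signal of the 32 genes was 13.31 ± 0.04 in ZsGreen-high, 13.25 ± 0.15 in ZsGreen-dim, 13.28 ± 0.08 in Sca1+ ZsGreen-negative and 13.01 ± 0.12 in Sca1- cells (SD, n = 4 each). By array this mean ran from 12.876 to 13.136 in Sca1- cells. ZsGreen-high arrays, at 13.254 to 13.35, and Sca1+ ZsGreen-negative arrays, at 13.163 to 13.359, all lay above that range. ZsGreen-dim arrays, at 13.091 to 13.452, overlapped it. These means were not tested. Sca1- cells held the lowest mean for 23 of the 32 genes, where 28.0% of all genes had their lowest mean there. ZsGreen-high cells held the highest mean for 18, against 35.9% of all genes. The spread between animals was smallest in ZsGreen-high cells, with a median SD over the 32 genes of 0.13 log2, against 0.24 in Sca1- cells. Whether this was particular to the list was not tested. A limma F test over the 4 populations called 15 of the 32 genes at an adjusted p under 0.05, where it called 32.3% of all genes. Without mouse 2 it called 6, against 15.2% of all genes, and with scaling to the hybridization controls 24, against 59.2%. In bulk samples of this kind, fewer cells expressing a gene and less RNA per cell cannot be told apart.

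Fos and Egr1, the best known of these genes, were bright in all 16 arrays. Fos, the inducible partner of Jun in the AP-1 complex, read 78029, 79922, 85014 and 79629 in ZsGreen-high cells of mice 1 to 4. It read 72483, 79064, 71556 and 79031 in ZsGreen-dim, 81422, 70653, 70055 and 73960 in Sca1+ ZsGreen-negative, and 83066, 66959, 70908 and 74046 in Sca1- cells. The populations overlapped, and the brightest of the 16 arrays was 1.27 times the dimmest. The difference between ZsGreen-high and Sca1+ ZsGreen-negative cells was 0.13 ± 0.07 log2 (SE, adjusted p = 0.23). Signals this high lie near the top of the arrays, whose brightest probe sets read 140741 to 155937, and whether that narrowed the differences was not tested.

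Egr1, a zinc finger factor induced by serum and stretch, read 81588, 80296, 85918 and 79542 in ZsGreen-high cells. It read 78780, 80765, 74842 and 85127 in ZsGreen-dim, 75710, 66955, 75216 and 79549 in Sca1+ ZsGreen-negative, and 77351, 64748, 67563 and 65017 in Sca1- cells. ZsGreen-high and Sca1- arrays did not overlap, at 0.26 ± 0.07 log2 (adjusted p = 0.0121). Without mouse 2 this difference was 0.24 and missed the threshold (adjusted p = 0.0658).

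Against Sca1+ ZsGreen-negative cells, ZsGreen-high cells had more Klf2, Socs3, Ppp1r15a and Hspa1b and less Fosl1, Maff, Klf6, Atf3 and Dnajb1. That is 9 of 32 genes (limma, adjusted p under 0.05), 4 higher and 5 lower, in a comparison that called 30.9% of all genes. The share is near the background, so the count is not a result about the list. Of all genes 17% were higher and 13.9% lower. By role, 0 of 9 AP-1 genes rose and 3 fell, 1 of 10 EGR, NR4A, KLF and MYC factors rose and 1 fell, 2 of 9 feedback and growth arrest genes rose and 0 fell, and 1 of 4 chaperones moved each way. The median difference of the 32 genes was 0.08 log2, beside -0.00195 over all genes. With mouse 2 left out the call remained for Klf6, 1 of 32 where 16% of all genes were called. With the epithelial mean as a covariate 0 of the 32 passed, and 1 of 17097 genes in all, 0.00585%. At an unadjusted p under 0.05 there were 3 members. Counts at an unadjusted p, here and below, have no share of all genes beside them and are not results about the list. Scaling to the hybridization controls put the median of all genes at 0.38 log2. Then 21 members were called higher, beside 60% of all genes, and 2 lower, beside 5.18%. Markers of other cells moved too. Of 7 smooth muscle genes 5 rose and none fell, with a summed signal of 66594 to 107855 in ZsGreen-high and 18713 to 49603 in Sca1+ ZsGreen-negative cells. Of 12 endothelial genes 1 rose and 9 fell, with sums of 14968 to 15374 in ZsGreen-high and 14792 to 19751 in Sca1+ ZsGreen-negative cells. Of 11 leukocyte genes 3 fell, with sums of 9846 to 14990 in ZsGreen-high and 14118 to 26109 in Sca1+ ZsGreen-negative cells and with Cd3e and Itgam at background in both, and of 10 fibroblast genes 4 rose. Of 4 glial and 5 mast cell genes 1 each fell, and 0 of 4 pericyte genes passed. The part of these cells in the differences was not tested.

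Klf6, a zinc finger factor induced by injury, read 18811, 19101, 22804 and 17299 in ZsGreen-high cells. The ZsGreen-dim arrays read 24198, 28297, 29413 and 32986, the Sca1+ ZsGreen-negative arrays 30837, 33013, 33671 and 37583, and the Sca1- arrays 29139, 36554, 37990 and 36934. Every ZsGreen-high array was below every array of the other populations. Klf6 fell by 0.80 ± 0.11 log2 against Sca1+ ZsGreen-negative cells (adjusted p = 0.000276) and was called without each mouse in turn. It was the only member called between ZsGreen-high and ZsGreen-dim cells, at -0.56 ± 0.11 (adjusted p = 0.0275), where 1.42% of all genes were called and 0.93% were lower. With scaling to the hybridization controls 18 members were higher, beside 40.4% of all genes, and 0 lower, beside 1.46%. The Klf6 call was lost without mouse 2 at -0.55 (adjusted p = 0.244), a setting in which 0% of all genes passed. All 3 Klf6 probe sets gave negative differences between ZsGreen-high and Sca1+ ZsGreen-negative cells, from -0.80 to -1.09 log2. With the epithelial covariate the Klf6 difference between those populations was -0.34 ± 0.17 (adjusted p = 0.563). Between ZsGreen-high and ZsGreen-dim cells Klf6 gave -0.25 ± 0.13 with the covariate (adjusted p = 0.649). Scaled to the hybridization controls it gave -0.24 there (adjusted p = 0.188). Of the markers, 6 of 17 epithelial and 1 of 4 glial genes fell between ZsGreen-high and ZsGreen-dim cells, and 2 of 7 smooth muscle genes rose. The part of these cells was not tested.

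Fosl1, the Fos-family protein Fra-1, had the widest range of the list. It read 1300, 1073, 2257 and 1436 in ZsGreen-high cells and 1965, 1796, 3166 and 4925 in ZsGreen-dim cells. It read 2645, 3724, 4535 and 6969 in Sca1+ ZsGreen-negative and 2095, 4167, 5231 and 3260 in Sca1- cells. The ZsGreen-high and Sca1+ ZsGreen-negative arrays did not overlap, while ZsGreen-high and Sca1- arrays did. Fosl1 was 2.88-fold lower in ZsGreen-high than in Sca1+ ZsGreen-negative cells, -1.53 ± 0.37 log2 (adjusted p = 0.00551), or -1.44 without mouse 2 (adjusted p = 0.0512). The covariate turned the sign, to 0.23 ± 0.45. With mouse as a block its difference from ZsGreen-dim cells also passed, at -0.90 (adjusted p = 0.0478), 1 of 2 members called with the block there, where 7.49% of all genes were. With the block and mouse 2 left out it did not pass (adjusted p = 0.0688), and Klf6 alone was called, where 6.32% of all genes were.

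Maff, a small Maf protein without an activation domain, read 7105, 7199, 9304 and 7634 in ZsGreen-high cells. The ZsGreen-dim arrays read 6604, 8736, 10358 and 12522. The Sca1+ ZsGreen-negative arrays read 10089, 11591, 13906 and 14323, and the Sca1- arrays 7268, 12446, 13720 and 10276. ZsGreen-high arrays all lay below the Sca1+ ZsGreen-negative ones, at -0.67 ± 0.21 log2 (adjusted p = 0.0222). It was -0.66 without mouse 2 (adjusted p = 0.12) and 0.29 ± 0.26 with the covariate. Mouse 1 gave the lowest array of every population.

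Atf3, a stress-induced factor of the ATF family, read 21278, 22621, 26087 and 26606 in ZsGreen-high cells. It read 24630, 28820, 33301 and 27102 in ZsGreen-dim, 28983, 33722, 33981 and 27140 in Sca1+ ZsGreen-negative, and 28014, 31422, 37926 and 33898 in Sca1- cells. No ZsGreen-high array reached either ZsGreen-negative population. The difference from Sca1+ ZsGreen-negative cells was -0.36 ± 0.12 log2 (adjusted p = 0.0301), and it became 0.024 when arrays were scaled to the hybridization controls and 0.13 with the covariate. Without mouse 2 it was -0.29 (adjusted p = 0.232). Against Sca1- cells it was -0.44 ± 0.12 (adjusted p = 0.00822), or -0.43 without mouse 2 (adjusted p = 0.0669).

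The members that rose in ZsGreen-high cells included the shear-responsive factor Klf2. It read 2923, 2865, 2319 and 2957 in ZsGreen-high, 2434, 2455, 2373 and 2056 in ZsGreen-dim, 2167, 1659, 2091 and 1611 in Sca1+ ZsGreen-negative, and 1997, 1349, 1523 and 1602 in Sca1- cells. No ZsGreen-high array overlapped either ZsGreen-negative population. Klf2 was higher by 0.56 ± 0.13 log2 than in Sca1+ ZsGreen-negative cells (adjusted p = 0.0042), by 0.49 without mouse 2 (adjusted p = 0.0508) and by 0.10 ± 0.20 with the covariate.

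Socs3, which inhibits JAK-STAT signalling from cytokine receptors, read 7505, 8255, 8200 and 7843 in ZsGreen-high cells. It read 4693, 5332, 5083 and 7783 in ZsGreen-dim, 4742, 4196, 5394 and 5422 in Sca1+ ZsGreen-negative, and 4356, 1947, 2841 and 2003 in Sca1- cells. ZsGreen-high cells lay above both ZsGreen-negative populations on every array, and the Sca1- array of mouse 1 lay apart from the other Sca1- arrays. The difference from Sca1+ ZsGreen-negative cells was 0.69 ± 0.21 log2 (adjusted p = 0.0221). Without mouse 2 it was 0.60 (adjusted p = 0.133), and with the covariate 0.55 ± 0.40 (adjusted p = 0.77).

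Ppp1r15a, known as GADD34, directs protein phosphatase 1 to the translation factor eIF2-alpha and so restores protein synthesis after stress. It read 11556, 13201, 12133 and 13041 in ZsGreen-high, 9386, 10013, 10266 and 12051 in ZsGreen-dim, 10267, 8380, 8542 and 9282 in Sca1+ ZsGreen-negative, and 9268, 5587, 6966 and 5248 in Sca1- cells. The ZsGreen-high arrays did not overlap either ZsGreen-negative population. Against Sca1+ ZsGreen-negative cells the difference was 0.46 ± 0.14 log2 (adjusted p = 0.0251), or 0.39 without mouse 2 (adjusted p = 0.164).

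**Figure D1:**
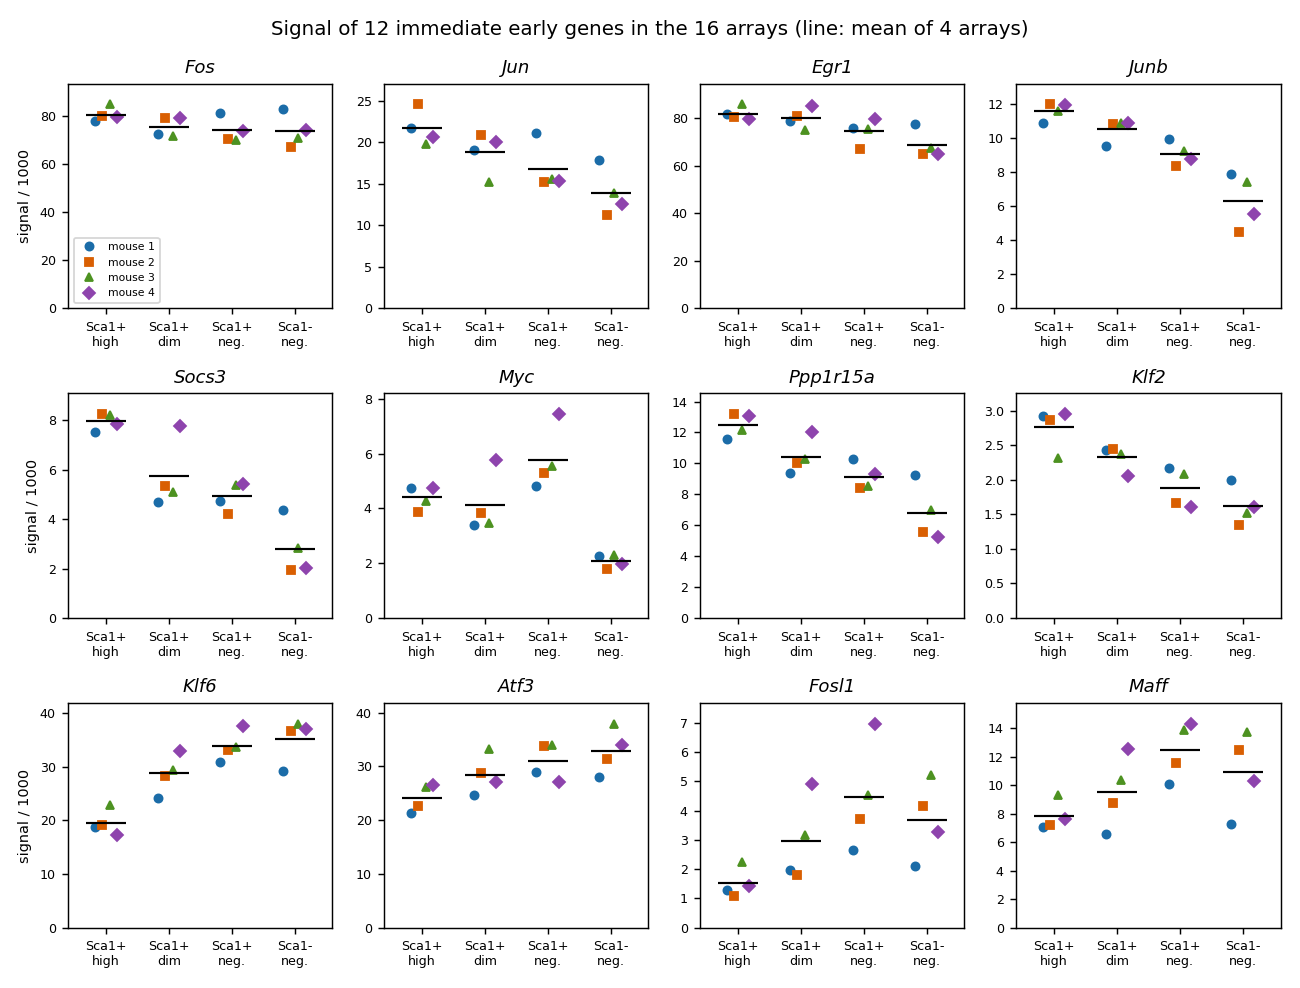
Signal divided by 1000 (linear axis from 0) of 12 immediate early genes on all 16 arrays, with ZsGreen-high, ZsGreen-dim, Sca1+ ZsGreen-negative and Sca1- cells from left to right. Each symbol is 1 array, coloured by mouse, and lines are means of 4 arrays. The means of Klf6 lie lowest and those of Socs3 highest in ZsGreen-high cells, Myc is lowest in Sca1- cells on every array, and Fos spans 66959 to 85014.

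With mouse as a block, Jun and Btg2 also passed between ZsGreen-high and Sca1+ ZsGreen-negative cells, 11 members in all where 34.4% of all genes were called. Jun, the central AP-1 partner, read 21672, 24598, 19752 and 20642 in ZsGreen-high and 19100, 20907, 15230 and 19987 in ZsGreen-dim cells. It read 21061, 15223, 15596 and 15335 in Sca1+ ZsGreen-negative and 17890, 11211, 13879 and 12582 in Sca1- cells. The Sca1+ ZsGreen-negative array of mouse 1 stood within the ZsGreen-high range, apart from the other 3. The difference was 0.38 ± 0.15 log2 (adjusted p = 0.0647), and 0.0386 was the adjusted p with the block. Btg2, an antiproliferative gene, differed by 0.21 ± 0.08 (adjusted p = 0.0549, and 0.0345 with the block). Its second probe set gave 0.12 ± 0.09 without a block (adjusted p = 0.353). With the block and mouse 2 left out, neither passed (adjusted p = 0.133 for Jun and 0.0948 for Btg2), and 5 members did, where 26.3% of all genes were called. The covariate turned Jun to -0.21 ± 0.22 and gave 0.48 ± 0.13 for Btg2, without a call for either.

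**Figure D2:**
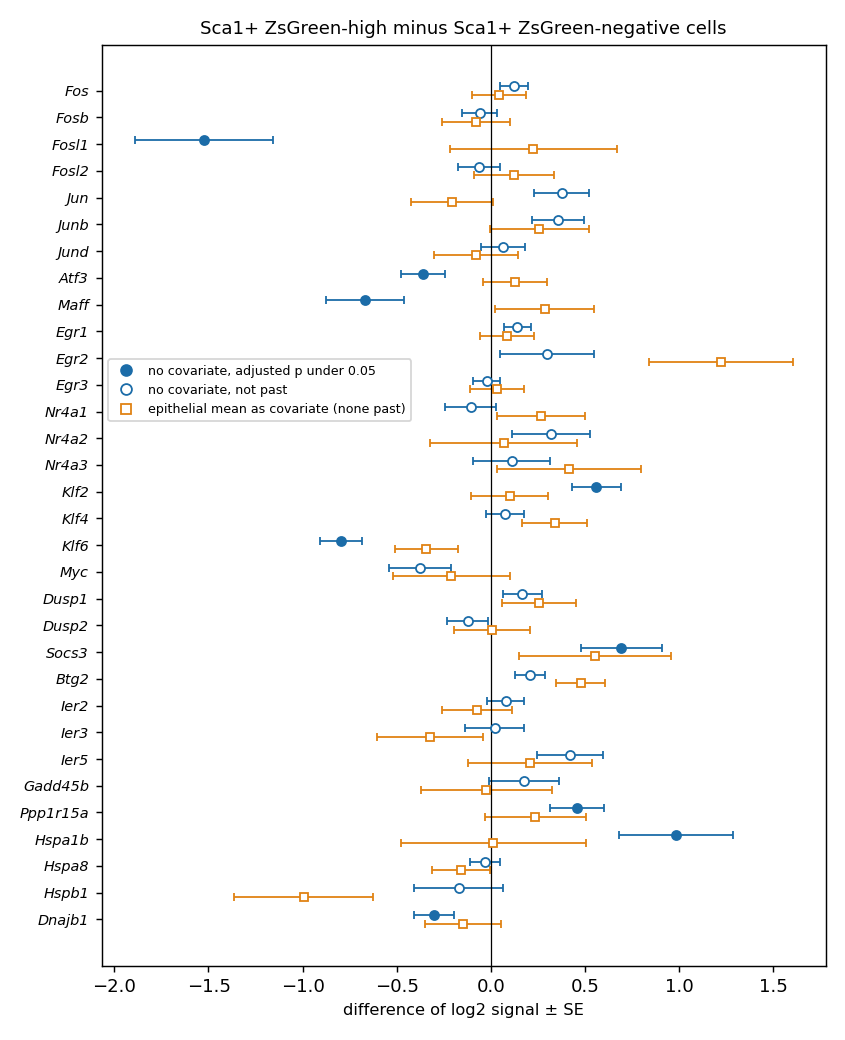
Difference in log2 signal (± SE, n = 4 arrays each) of the 32 genes between ZsGreen-high and Sca1+ ZsGreen-negative cells. Circles are values with no covariate, filled where the adjusted p was under 0.05, and squares are values with the mean of 17 epithelial genes as covariate. The 9 filled circles include Klf6 at -0.80 and Klf2 at 0.56, and no square passed.

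Between ZsGreen-dim and Sca1+ ZsGreen-negative cells no member was called. Of the 32, 0 passed the limma test, where 1.51% of all genes were called, and 3 had an unadjusted p under 0.05 (Klf2, Myc and Dnajb1). With mouse as a block 2 passed, Myc at -0.50 (adjusted p = 0.0307) and Dnajb1 at -0.31 (adjusted p = 0.0405), where 14% of all genes were called. With the block and mouse 2 left out 0 passed, where 4.66% of all genes were called, and 4 had an unadjusted p under 0.05. The adjusted p was then 0.134 for Myc and 0.0641 for Dnajb1. The median of the 32 differences was -0.02 log2.

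Sca1+ ZsGreen-negative cells had more Myc, Socs3 and Junb than Sca1- cells, populations with close epithelial marker means. The 3 genes, from the AP-1, MYC and feedback groups, were 9.38% of the list, all higher, where 2.45% of all genes were called and 1.22% were higher. A further 7 members, all higher, had an unadjusted p under 0.05 without passing. The share of all genes at that unadjusted threshold is not given, so this count is not a result about the list. The median of the 32 differences was 0.21 log2, with 27 of 32 above 0, beside a median of -0.000684 over all genes. Markers of other cells moved with this comparison. The summed signal of 4 measured pericyte genes ran from 6653 to 14246 in Sca1+ ZsGreen-negative and from 24862 to 53574 in Sca1- cells, with none at background. That of 4 enteric glia genes ran from 8272 to 12721 in Sca1+ ZsGreen-negative cells, where S100b was at background, and from 13223 to 16723 in Sca1- cells. Of these, 1 of 4 pericyte and 3 of 4 glial genes fell. Mast cell genes summed to 1858 to 2350 in Sca1+ ZsGreen-negative and 3939 to 6732 in Sca1- cells, with Cpa3 and Mcpt4 at background in both, and 1 of 5 fell. That of 7 smooth muscle genes ran from 18713 to 49603 in Sca1+ ZsGreen-negative and from 37832 to 90101 in Sca1- cells, and 1 fell (2 with the block). The 10 fibroblast genes had a median difference of 0.42 log2, with 9 above 0, and 0 passed (3 with the block). The part of these cells in the differences was not tested.

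Myc, a growth-promoting factor and a classical early response gene, read 4837, 5294, 5532 and 7453 in Sca1+ ZsGreen-negative and 2260, 1778, 2308 and 1957 in Sca1- cells. It read 4745, 3870, 4263 and 4752 in ZsGreen-high and 3383, 3849, 3475 and 5783 in ZsGreen-dim cells. Every Sca1+ array lay above every Sca1- array. Myc was 2.76-fold higher in Sca1+ ZsGreen-negative than in Sca1- cells, 1.47 ± 0.17 log2 (adjusted p = 0.000139). The difference ranged from 1.31 to 1.59 as each mouse was left out and was called each time, with an adjusted p of 0.0117 without mouse 2, when it was the only member called and 0.907% of all genes were. With the epithelial covariate it was 1.47 ± 0.16, and 4 members passed (Gadd45b, Junb, Myc and Socs3) where 3.85% of all genes did.

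Junb, a Jun-family protein that can restrain Jun, read 9946, 8346, 9266 and 8794 in Sca1+ ZsGreen-negative and 7866, 4450, 7418 and 5545 in Sca1- cells. It read 10915, 12004, 11601 and 11943 in ZsGreen-high and 9517, 10840, 10862 and 10888 in ZsGreen-dim cells, so no Sca1+ array overlapped the Sca1- ones. Junb was higher by 0.56 ± 0.14 log2 in Sca1+ ZsGreen-negative than in Sca1- cells (adjusted p = 0.0462), and by 0.44 without mouse 2 (adjusted p = 0.198). Socs3 was higher by 0.90 ± 0.21 (adjusted p = 0.0369), in all 4 mice, with overlap through the Sca1- array of mouse 1, and by 0.83 without mouse 2 (adjusted p = 0.252). Without the Sca1+ ZsGreen-negative array of mouse 1, neither passed, with an adjusted p of 0.121 for Junb and 0.0708 for Socs3. Gadd45b, which binds stress kinases and rises with DNA damage, averaged 5368 ± 1198 in Sca1+ ZsGreen-negative and 3277 ± 592 in Sca1- cells (SD, n = 4 each). Its difference of 0.70 ± 0.19 did not pass (adjusted p = 0.0626). It passed with mouse as a block (adjusted p = 0.031), in a fit that called 3.71% of all genes, and with the epithelial covariate (adjusted p = 0.0448). With the block and mouse 2 left out it did not (adjusted p = 0.115), and Myc alone was called, where 2.16% of all genes were.

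The comparison of ZsGreen-high with Sca1- cells, which shares its arrays with those above, held the most calls. Of the 32 genes 14 were higher and 3 lower, 53.1% of the list, where 35.9% of all genes were called, 19.2% higher and 16.7% lower. Without mouse 2 the count was 9, against 22.4% of all genes. Markers of other cells moved with it. Of 10 fibroblast genes 9 rose, and of 7 smooth muscle genes 2 rose, with summed signals of 66594 to 107855 in ZsGreen-high and 37832 to 90101 in Sca1- cells. Of 12 endothelial genes 1 rose and 9 fell, with sums of 14968 to 15374 in ZsGreen-high and 13598 to 27516 in Sca1- cells. All 4 glial genes fell, with sums of 2944 to 5468 in ZsGreen-high cells, where S100b was at background, and 13223 to 16723 in Sca1- cells. Of 11 leukocyte genes 4 fell, of 4 pericyte genes 1 and of 5 mast cell genes 1. Their part in the differences was not tested. With the covariate Btg2 remained, at 0.57 ± 0.13 (adjusted p = 0.0408), where 1.71% of all genes were called. Scaling to the hybridization controls gave 25 higher, beside 66.2% of all genes, and 1 lower, beside 5.57%. By role, 3 of 9 AP-1 genes were higher and 2 lower, 4 of 10 EGR, NR4A, KLF and MYC factors were higher and 1 lower, 6 of 9 feedback and growth arrest genes were higher, and 1 of 4 chaperones was higher. The 9 members called without each mouse in turn were Btg2, Gadd45b, Jun, Junb, Klf2, Klf6, Myc, Ppp1r15a and Socs3. The share of all genes called under that rule is not given here, so this count is not a result about the list.

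Socs3 had the largest difference among the members in that comparison, 3.01-fold or 1.59 ± 0.21 log2 (adjusted p = 7.26e-05). The 3 lower members were Fosl1 at -1.26 ± 0.37, Klf6 at -0.85 ± 0.11 and Atf3. Of the higher ones, Myc followed at 1.09 ± 0.17, Hspa1b at 1.07 ± 0.30, Ppp1r15a at 0.92 ± 0.14 and Junb at 0.91 ± 0.14. Nr4a3, an orphan nuclear receptor, was higher by 0.71 ± 0.21, and its second probe set gave 0.47 ± 0.12. That probe set also passed between ZsGreen-high and Sca1+ ZsGreen-negative cells, at 0.42 (adjusted p = 0.0127), where the first gave 0.11. Dusp1, a phosphatase that inactivates stress kinases, averaged 35638 ± 3808 in ZsGreen-high and 27903 ± 3377 in Sca1- cells (SD, n = 4 each), a difference of 0.36 ± 0.10. Fosb, another Fos protein, averaged 41278 ± 2846 in ZsGreen-high and 34825 ± 5155 in Sca1- cells, a difference of 0.25 ± 0.09 with overlapping arrays. Without mouse 2 none of Nr4a3, Dusp1, Fosb, Hspa1b and Fosl1 passed between ZsGreen-high and Sca1- cells. Their adjusted p values were then 0.0949, 0.0629, 0.22, 0.0946 and 0.127. With mouse as a block 6 further members passed, where 39% of all genes were called: Egr2, Nr4a2, Klf4, Ier3 and Jund were higher and Maff lower. With the block and mouse 2 left out 14 members passed, where 30.1% of all genes were called, and of those 6 only Klf4 was among them.

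ZsGreen-dim cells differed from Sca1- cells in 7 members, all higher: Socs3, Myc, Junb, Gadd45b, Ppp1r15a, Klf2 and Fosb. That is 7 of 32 where 13.9% of all genes were called and 7.96% were higher. Socs3 was higher by 1.09 ± 0.21 log2 and Myc by 0.96 ± 0.17. Without mouse 2 the calls were Myc and Junb, where 3.59% of all genes were called. With the covariate Socs3, Myc, Junb and Ppp1r15a passed, where 8.14% of all genes were called. Markers of other cells moved with this comparison as well. Of 10 fibroblast genes 8 rose, of 4 pericyte genes 3 fell, and all 4 glial genes fell. Of 12 endothelial genes 1 rose and 1 fell, and of 17 epithelial and 5 mast cell genes 1 each fell. No smooth muscle or leukocyte gene passed. The part of these cells in the differences was not tested.

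**Figure D3:**
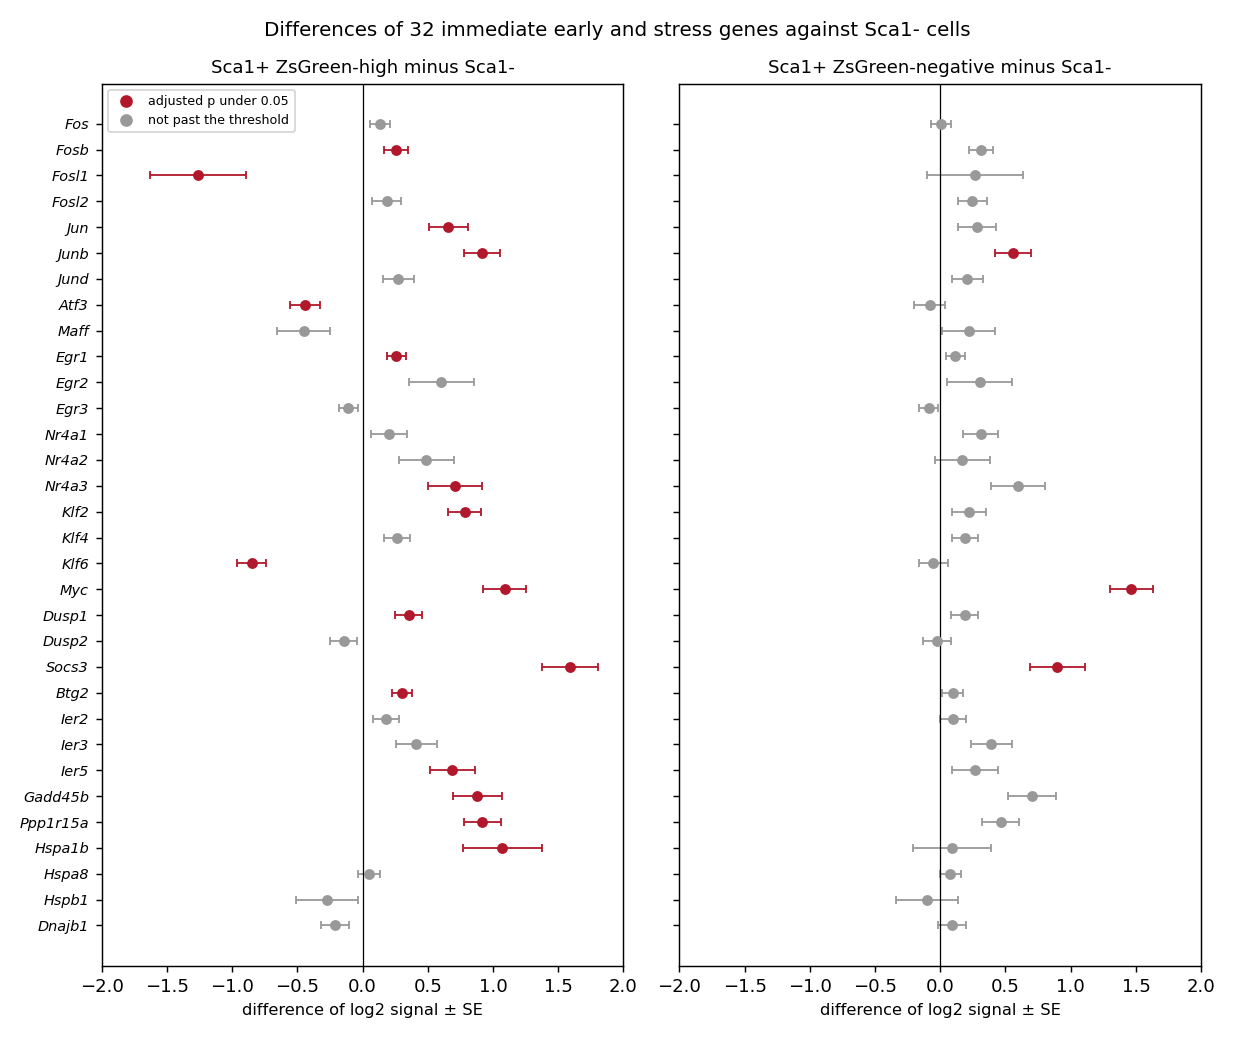
Difference in log2 signal (± SE, n = 4 arrays each) of the 32 genes for ZsGreen-high minus Sca1- cells (left) and Sca1+ ZsGreen-negative minus Sca1- cells (right), which share the Sca1- arrays. Red points had an adjusted p under 0.05. Socs3 and Myc lie farthest to the right on the left panel at 1.59 and 1.09, and Myc on the right panel at 1.47.

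The chaperones did not move as a group. Hspa1b, the inducible Hsp70 that refolds damaged proteins, read 26478, 35001, 23610 and 26939 in ZsGreen-high and 18232, 32009, 16813 and 18688 in ZsGreen-dim cells. It read 28186, 10991, 12877 and 9698 in Sca1+ ZsGreen-negative and 16758, 9346, 11552 and 16657 in Sca1- cells. The Sca1+ ZsGreen-negative array of mouse 1 lay inside the ZsGreen-high range, and the other 3 lay far below it. The difference between these populations was 0.98 ± 0.30 log2 (adjusted p = 0.022), higher in 3 of 4 mice. Without that array it was called with an adjusted p of 0.000889, and without mouse 2 it was 0.75 (adjusted p = 0.126). The covariate left 0.01 ± 0.49. The other probe sets of Hspa1b gave 1.03 ± 0.27 and 1.07 ± 0.31, the last with 9 arrays at background.

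Hspb1, a small heat shock protein that holds unfolded proteins, did not pass any comparison. It read 5524, 7793, 5938 and 5791 in ZsGreen-high, 5054, 6654, 4812 and 5591 in ZsGreen-dim, 11594, 5743, 5814 and 6146 in Sca1+ ZsGreen-negative, and 11710, 6478, 5842 and 7118 in Sca1- cells. The mouse 1 arrays of both ZsGreen-negative populations stood apart from the rest of their groups. They were also the 1 male array of each of those populations, and the array with the lowest epithelial mean in each. That mean was 13.708 in Sca1+ ZsGreen-negative cells, where the other arrays gave 14.196 to 14.463. In Sca1- cells it was 13.488, where the others gave 14.327 to 14.561. Sex and epithelial signal cannot be told apart here, and the part of either was not tested. In Sca1+ ZsGreen-negative cells the mouse 1 array was high for Hspa1b, Hspb1 and Jun.

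Dnajb1, the Hsp40 partner that loads clients onto Hsp70, read 15916, 21425, 18379 and 18033 in ZsGreen-high and 15009, 20119, 19698 and 18713 in ZsGreen-dim cells. It read 23200, 21829, 25024 and 20560 in Sca1+ ZsGreen-negative and 19011, 21223, 21960 and 22743 in Sca1- cells. The difference between ZsGreen-high and Sca1+ ZsGreen-negative cells was -0.30 ± 0.11 log2 (adjusted p = 0.0444). It was -0.39 without mouse 2 (adjusted p = 0.0531) and 0.081 after scaling to the hybridization controls. Its second probe set gave 0.01 ± 0.11, so the gene's probe sets disagreed. Hspa8, the constitutive Hsp70, averaged 28362 ± 2388, 27247 ± 2698, 28924 ± 1455 and 27407 ± 1825 in ZsGreen-high, ZsGreen-dim, Sca1+ ZsGreen-negative and Sca1- cells (SD, n = 4 each), and passed no comparison. Of its other 3 probe sets 1 disagreed, at 0.46 ± 0.11 log2 between ZsGreen-high and Sca1+ ZsGreen-negative cells (adjusted p = 0.00529). It also passed against Sca1- cells, at 0.61 ± 0.11 for ZsGreen-high (adjusted p = 0.000567) and 0.43 ± 0.11 for ZsGreen-dim cells (adjusted p = 0.0179). The remaining 2 passed no comparison.

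**Figure D4:**
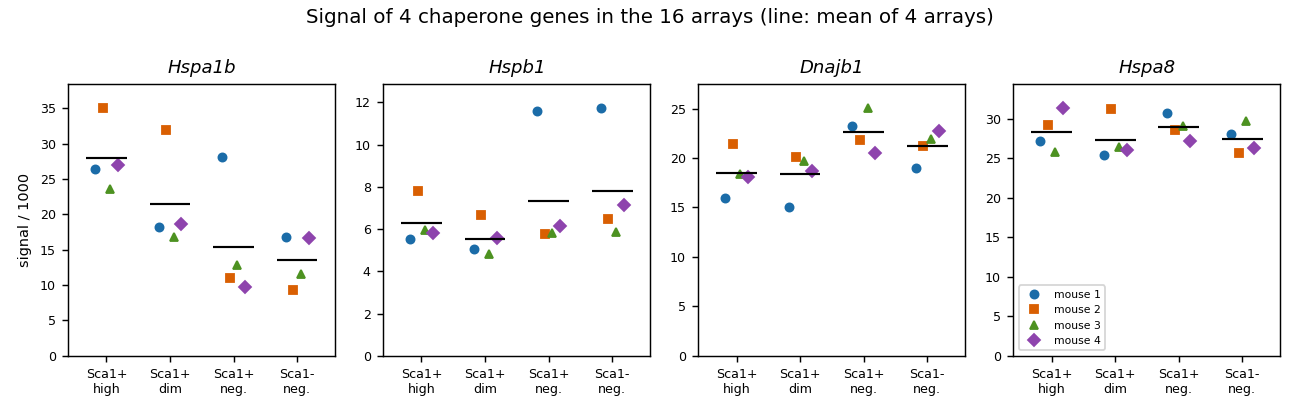
Signal divided by 1000 (linear axis from 0) of 4 chaperone genes on all 16 arrays, with ZsGreen-high, ZsGreen-dim, Sca1+ ZsGreen-negative and Sca1- cells from left to right, coloured by mouse, with lines at means of 4 arrays. Mouse 1 is high for Hspb1 in both ZsGreen-negative populations, at 11594 and 11710, and for Hspa1b in Sca1+ ZsGreen-negative cells at 28186.

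Besides Fos, Hspa8 and Hspb1, 10 members passed none of the 6 comparisons without a block: Fosl2 and Jund of the AP-1 family, Egr2, Egr3, Nr4a1, Nr4a2 and Klf4 among the other factors, and Dusp2, Ier2 and Ier3 among the feedback genes. Jund, a Jun protein that is present before stimulation, averaged 48418 ± 1412 in ZsGreen-high, 50980 ± 5034 in ZsGreen-dim, 46392 ± 4024 in Sca1+ ZsGreen-negative and 40610 ± 7570 in Sca1- cells (SD, n = 4 each). Klf4, best known as a reprogramming factor, averaged 37192 ± 1360, 34610 ± 3849, 35328 ± 1814 and 31223 ± 4241 in those populations, listed from ZsGreen-high to Sca1-. Its difference between ZsGreen-high and Sca1- cells was 0.26 ± 0.10 log2, with no overlap of arrays, and passed with the block (adjusted p = 0.0213, and 0.0217 with mouse 2 left out) and with scaling to the hybridization controls. Its second probe set passed without a block, at 0.33 ± 0.10 (adjusted p = 0.0171). Egr2 spread widely within ZsGreen-high cells, from 7995 to 15245. Nr4a1, a receptor induced by antigen and growth signals, averaged 11640 ± 744 in ZsGreen-high, 10939 ± 2418 in ZsGreen-dim, 12618 ± 1827 in Sca1+ ZsGreen-negative and 10126 ± 980 in Sca1- cells. Egr3 ranged from 628 to 801 over the 16 arrays, Dusp2 from 1097 to 1544 and Ier2 from 5821 to 8634, and none of these had an adjusted p under 0.05 in any of the 6 comparisons. Ier3, which protects cells from death signals, ranged from 2290 to 4825, and it was higher by 0.41 ± 0.16 in ZsGreen-high than in Sca1- cells (adjusted p = 0.0528). Ier5, an early gene linked to the heat shock response, averaged 881 ± 91 in ZsGreen-high and 554 ± 122 in Sca1- cells, and passed between those populations alone, at 0.69 ± 0.18 (adjusted p = 0.00625), or 0.53 without mouse 2 (adjusted p = 0.0809).

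By mouse rather than by population, 0 of the 32 members passed the limma F test, where 4.84% of all genes passed, and 5 had an unadjusted p under 0.05: Fosl1, Atf3, Maff, Egr2 and Nr4a2. Without mouse 2, Fosl1 (adjusted p = 0.0454) and Maff (adjusted p = 0.0266) passed, where 10.9% of all genes did. With scaling to the hybridization controls 2 members passed, where 6.87% of all genes did.

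Other genes of the same pathways came from lists of their usual members, and their values are given with all 4 mice only. Of 15 measured kinases and factors upstream of immediate early genes, 5 were higher and 1 lower in ZsGreen-high than in Sca1+ ZsGreen-negative cells, a comparison that called 30.9% of all genes. Mapkapk2, the kinase downstream of p38, averaged 2728 ± 369 in ZsGreen-high and 1972 ± 55 in Sca1+ ZsGreen-negative cells (SD, n = 4 each), a difference of 0.46 ± 0.12 log2 (adjusted p = 0.00917). Creb1, which binds the cyclic AMP element, was higher by 0.44 ± 0.13, and Elk4, a partner of serum response factor, by 0.31 ± 0.08. Map2k1, the kinase that activates ERK, differed by -0.36 ± 0.10 (adjusted p = 0.0137). With the epithelial covariate these gave 0.24 for Mapkapk2, -0.083 for Creb1, 0.11 for Elk4 and 0.15 for Map2k1.

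Of 28 other rapid response genes 3 were higher and 9 lower in the same comparison. Ccn2, a matrix-associated protein induced by stretch, was higher by 1.89 ± 0.36 log2 (adjusted p = 0.00127), and it was also the 1 gene of this list called between ZsGreen-dim and Sca1+ ZsGreen-negative cells, at 1.63 ± 0.36 (adjusted p = 0.0427). That last comparison called 1.51% of all genes, and 0.0585% without mouse 2. Between ZsGreen-high and Sca1+ ZsGreen-negative cells Arc, an early response gene best known from synapses, differed by -1.66 ± 0.32. The phosphatase Dusp4 differed by -1.61 ± 0.32 and the antiproliferative Tob1 by -1.45 ± 0.26. With the epithelial covariate Ccn2 gave 0.55, Arc 0.028, Dusp4 -0.32 and Tob1 -0.057.

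Of 18 measured other heat shock and stress genes 6 were higher and 1 lower in ZsGreen-high than in Sca1+ ZsGreen-negative cells, where 30.9% of all genes were called. The small heat shock genes Cryab and Hspb8 were higher by 1.34 ± 0.34 and 1.13 ± 0.25 log2, and with the epithelial covariate these were 0.10 and 0.32. Between Sca1+ ZsGreen-negative and Sca1- cells 2 of the 18 passed, where 2.45% of all genes did. Gadd45g, a relative of Gadd45b, averaged 4116 ± 598 in Sca1+ ZsGreen-negative and 2103 ± 871 in Sca1- cells (SD, n = 4 each), a difference of 1.04 ± 0.22 (adjusted p = 0.0156). The metallothionein Mt1, which binds zinc and copper, averaged 6564 ± 692 in Sca1+ ZsGreen-negative and 3858 ± 584 in Sca1- cells, a difference of 0.77 ± 0.11 (adjusted p = 0.00104).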

How the data were processed

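The authors hybridized 16 arrays, each from 2 ng of amplified RNA, with Affymetrix Expression Console 1.1 named in the submitters' processing notes and the normalization not given in the sources used here. Each deposited value is a score, standardized per probe set over the 16 arrays. The whole-number signals behind the deposited scores were recovered for 45141 of 45141 probe sets, with recomputed scores within 1e-09, with numba 0.67.0, numpy 2.4.6 and pandas 2.3.3 under Python 3.11.15. The recovery was tested on simulated data and found 1000 of 1000 probe sets. Recovered signals ran from 58 to 155937, array medians from 661 to 686, and 59.2% to 81.4% of probe sets per array lay above the highest nonspecific control (234 to 488). Background means at or below that control on every array of the population. Signals hold the array background, which shrinks the differences of dim genes.

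Probe sets were named from the platform table: 28898 carried 1 gene, 551 several and 15588 none. For each gene the probe set of highest mean was used. Log2 signals, computed here from the deposited scores, were fitted under R 4.3.3 by limma 3.58.1 (lmFit and eBayes), with 1 mean per population and no block. Two-sided p values were adjusted (Benjamini-Hochberg) over 17097 genes, with a threshold of 0.05. The number of arrays limits the precision. By the labels each mouse gave all 4 populations. Deviations from population means had a mean correlation of 0.26 within a mouse (from -0.08 for mouse 2 to 0.52 for mouse 1) and of -0.15 between different mice. Deviations within a population cancel out, so the value between different mice is partly negative by construction and is no baseline for the other. Mouse as a block, each mouse left out, scaling, quantile normalization, a filter on dim genes, all probe sets, the compared populations alone and an epithelial covariate were the alternatives. Values in all arrays are given for members called in any of the first 4 comparisons and for Fos, Jun and Egr1. Hspb1 and the members named only with a block were chosen after their values were seen. Up to 4 genes of each pathway list with the largest differences past the threshold are named. The members and lists were chosen with earlier results of these data known. Promoters are those of RefSeq on GRCm38.p6. Figures were drawn with matplotlib 3.10.9.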

Additional observations from a re-analysis of the deposited data

Results flagged for a closer look

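In 11 of 128 sets of 4 arrays (32 genes in 4 populations) the highest or lowest array stood apart from the other 3 by more than Dixon's 95% critical value for 4 values, which chance gives in about 1 in 20 sets. Mouse 1 gave 4 of the 11. In Sca1+ ZsGreen-negative cells it read 21061 for Jun, where the other arrays read 15223 to 15596, and 11594 for Hspb1, where the others read 5743 to 6146. In ZsGreen-dim cells it read 9517 for Junb (others 10840 to 10888), and in Sca1- cells 29139 for Klf6 (others 36554 to 37990). Mouse 2 read 32009 for Hspa1b in ZsGreen-dim cells (others 16813 to 18688) and 5821 for Ier2 in Sca1- cells (others 7490 to 7827). Mouse 3 read 40691 for Fosb in ZsGreen-dim cells (others 45102 to 45316) and 2319 for Klf2 in ZsGreen-high cells (others 2865 to 2957). Mouse 4 read 11074 for Nr4a2 (others 5862 to 6507) and 7646 for Gadd45b (others 4340 to 4565) in ZsGreen-dim cells, and 3635 for Nr4a3 in Sca1+ ZsGreen-negative cells (others 2658 to 2718).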

How the results depend on the processing

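Counts of members called depended on the processing, and the cause was not tested. Counts given in this section without a share of all genes are not results about the list. With mouse as a replicate block the 37 called differences all stayed past the threshold, and the counts were 2 members for ZsGreen-dim against Sca1+ ZsGreen-negative (0 without it) and 2 for ZsGreen-high against ZsGreen-dim (1 without it). Scaled to the hybridization controls, the counts were 23 for ZsGreen-high against Sca1+ ZsGreen-negative, 18 against ZsGreen-dim and 26 against Sca1- cells, 24 over the populations and 2 over the mice, where 65.2%, 41.9%, 71.8%, 59.2% and 6.87% of all genes were called. With the epithelial mean as a covariate they were 0, 0 and 1 for the same 3 comparisons, 4 for ZsGreen-dim against Sca1- cells and 3 over the populations. That covariate turned Fosl1 to 0.23, Atf3 to 0.13 and Maff to 0.29 log2 for ZsGreen-high against Sca1+ ZsGreen-negative cells, and Fosl1 to 0.50 and Atf3 to 0.051 against Sca1- cells. Hybridization scaling turned Atf3 to 0.024 and Dnajb1 to 0.081 in the first of these. With only the compared populations fitted, which leaves fewer arrays, Sca1+ ZsGreen-negative against Sca1- cells gave 1 member and ZsGreen-dim against Sca1- cells 4. Quantile normalization and the filter on dim genes each gave 1 member over the mice.

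Settings chosen after seeing the data were a fit without Sca1+ ZsGreen-negative mouse 1, giving 1 member against ZsGreen-dim cells and 1 against Sca1- cells, and the block with mouse 2 left out, giving 5 for ZsGreen-high against Sca1+ ZsGreen-negative, 1 for Sca1+ ZsGreen-negative against Sca1- and 4 for ZsGreen-dim against Sca1- cells. Leaving out each mouse in turn gave 1 to 10 members for ZsGreen-high against Sca1+ ZsGreen-negative, where 16% to 30.4% of all genes were called. It gave 0 to 1 for ZsGreen-dim against Sca1+ ZsGreen-negative, where 0.0585% to 9.01% were, and 0 to 1 for ZsGreen-high against ZsGreen-dim. It gave 1 to 5, 9 to 21 and 1 to 12 for Sca1+ ZsGreen-negative, ZsGreen-high and ZsGreen-dim against Sca1- cells, 6 to 17 over the populations and 0 to 2 over the mice. Without mouse 2, 0% of all genes were called for ZsGreen-high against ZsGreen-dim. In the same setting 0.907%, 22.4% and 3.59% were called against Sca1- cells in the order above, 15.2% over the populations and 10.9% over the mice. Of the 37 called differences 35 stayed past the threshold without mouse 1, 13 without mouse 2, 22 without mouse 3 and 20 without mouse 4.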
